A study of Mus musculus with 15 samples.

Results

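The 10 genes described here are 7 that encode neural adhesion and signalling proteins and 3 of other function: Tenm4, Nrcam, Dlg2, Nts, Ednrb, Agtr2, Chrna7, Avil, Car6 and Chchd10. They were found as the probe sets that the platform's annotation maps to these symbols, which gave 21 of the 45101 probe sets on the array and 10 of 18193 genes. The arrays measured mammospheres, floating balls of mammary cells, grown for 7 days from primary mammary tumours and then treated for 24 h. All 15 arrays came from FVB/N mice of the genotype WAPCre-DNbcatn;HGF, so the DMSO spheres carry the same alleles as the treated ones. By general knowledge the WAP promoter is active in the mammary epithelium of pregnancy and lactation and HGF is the ligand of the MET receptor. A first set, with the title code JAH, held 3 PHA, 3 ICG and 3 DMSO arrays, and a second set, with the code JHO, held 3 PHA+ICG and 3 DMSO arrays. The series text names inhibitors of the Wnt and MET pathways, given singly or together; by general knowledge PHA is an inhibitor of the MET kinase and ICG one of transcription driven by β-catenin, and no doses were given.

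Teneurins such as Tenm4 are large transmembrane proteins that bind latrophilin receptors on neighbouring cells. Nrcam, a member of the L1 family, binds ankyrins inside the cell and guides axons, and Dlg2 encodes a membrane-associated guanylate kinase scaffold that gathers channels and receptors at synapses. Nts encodes the precursor of the peptide neurotensin. Ednrb, Agtr2 and Chrna7 encode an endothelin receptor, an angiotensin receptor and a subunit of the nicotinic acetylcholine receptor. Avil encodes advillin, an actin-binding protein of the villin family found in sensory neurons, Car6 a secreted carbonic anhydrase, and Chchd10 a protein of the mitochondrial intermembrane space.

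The members were chosen on PHA+ICG against DMSO. By difference of means, 7 of them (Car6, Tenm4, Chchd10, Nrcam, Dlg2, Avil and Ednrb) were among the 10 highest of 18193 genes in that contrast and Agtr2 was at rank 2 from the lowest. Nts and Chrna7 ranked lower, at 34 and 261 from the highest, and may have been chosen for how the combination departed from the single treatments. The values with PHA+ICG are therefore a description with no test for all 10 genes, as are those of Nts and Chrna7 in the first set, and those of Car6 and Avil with ICG, for which they had also been named. The other values of the first set were tested with limma on its 9 arrays, with Benjamini-Hochberg adjustment over all genes. Other members departed from the single treatments too, such as Dlg2, at 2.55 with PHA+ICG and −0.23 and 0.13 with PHA and ICG. If that bore on their choice, the first-set tests of these genes are not independent of it. Whether the arrays of a group came from different cultures or mice is not in the labels. The p-values therefore cover the spread among these arrays, possibly a technical one, and the number of arrays limits the precision. All levels are log2 signals, all differences are differences of log2 means, and n = 3 arrays in each group.

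Promoters were looked at because most members moved the same way with PHA+ICG, the contrast they were chosen on. With ICG alone some were higher and some lower. The RefSeq table (GRCm38.p6) held 13 windows, from 250 bases before to 50 after an annotated start, for the 10 genes, with 3 windows for Dlg2 and 2 for Tenm4. Tenm4, Dlg2 and Chrna7 lie on chromosome 7, and Nts, Avil and Chchd10 on chromosome 10. On both strands the windows were searched for the TCF motif CTTTGNT, the cAMP response motif TGACGTCA, the ATF4 and C/EBP motif TGATGNAA and TCAGCACC, letters from the neural repressor element RE1. The first 2 were found in 0 of the 13 windows, against 18.6% and 1.79% of 32851 promoter windows. The ATF4 and C/EBP letters stood in the windows of Avil, Chchd10 and Nts, against 3.97% of all windows, with 2 matches in Chchd10, and the RE1 letters in that of Ednrb, against 1.65%. These 4 windows are shown 5′ to 3′ along the gene's own strand, with the matches in capitals. The matches in Nts and Ednrb read along the opposite strand and are printed as they stand. A match of letters is a description and not a site of binding.
Chchd10, chr10:75932880-75933179, plus strand: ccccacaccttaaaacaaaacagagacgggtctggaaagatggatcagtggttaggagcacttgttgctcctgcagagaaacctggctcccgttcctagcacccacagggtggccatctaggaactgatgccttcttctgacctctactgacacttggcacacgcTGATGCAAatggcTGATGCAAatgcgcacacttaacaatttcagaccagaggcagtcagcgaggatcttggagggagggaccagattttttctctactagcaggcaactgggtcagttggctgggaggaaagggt
Avil, chr10:127000459-127000758, plus strand: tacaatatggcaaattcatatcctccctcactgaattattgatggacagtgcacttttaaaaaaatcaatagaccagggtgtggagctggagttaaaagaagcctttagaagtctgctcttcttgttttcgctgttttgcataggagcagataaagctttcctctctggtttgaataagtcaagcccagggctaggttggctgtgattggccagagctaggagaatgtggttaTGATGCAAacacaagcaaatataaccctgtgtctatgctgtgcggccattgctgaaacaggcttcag
Nts, chr10:102490369-102490668, minus strand: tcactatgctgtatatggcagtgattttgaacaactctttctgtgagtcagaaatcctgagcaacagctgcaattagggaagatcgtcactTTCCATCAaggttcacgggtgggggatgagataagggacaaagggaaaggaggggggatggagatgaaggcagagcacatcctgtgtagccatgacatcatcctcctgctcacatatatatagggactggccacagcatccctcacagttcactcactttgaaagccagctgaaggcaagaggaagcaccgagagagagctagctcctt
Ednrb, chr14:103843652-103843951, minus strand: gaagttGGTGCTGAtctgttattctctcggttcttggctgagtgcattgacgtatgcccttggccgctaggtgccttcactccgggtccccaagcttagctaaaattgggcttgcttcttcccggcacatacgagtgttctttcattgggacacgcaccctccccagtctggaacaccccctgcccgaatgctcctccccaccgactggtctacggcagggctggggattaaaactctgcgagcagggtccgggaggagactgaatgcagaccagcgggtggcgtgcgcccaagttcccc
In Chchd10 and Avil all 3 matches were TGATGCAA, and in Avil it began 17 bases before the annotated start. The windows of Nrcam and Chrna7 held 74.0% and 70.0% G or C, against a median of 52.7% over all windows, and that of Agtr2 held 41.3%.

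With both inhibitors, 9 of the 10 genes were higher than in the DMSO arrays of the second set on all 3 arrays, and Agtr2 was lower on all 3. Of all genes 7.33% were higher on all 3 arrays without overlap. By difference of means 8 members were at least 1 higher and 1, Agtr2, at least 1 lower, against 0.561% and 2.78% of all genes. Since this contrast chose the members, nothing is read from these shares. With ICG alone, Nrcam, Chchd10, Tenm4 and Ednrb rose among the 6 genes tested, where 11.9% of all genes were called higher. With PHA alone 0 of the 8 genes tested rose, Ednrb and Nrcam fell, and 6 did not pass, against 3.14% of all genes called higher and 7.07% lower. Nts and Chrna7 were lower with PHA and higher with PHA+ICG. The second set also started from other levels, and the levels of Agtr2 and Nts in its DMSO spheres lay furthest from those of the first.

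**Figure D1:**
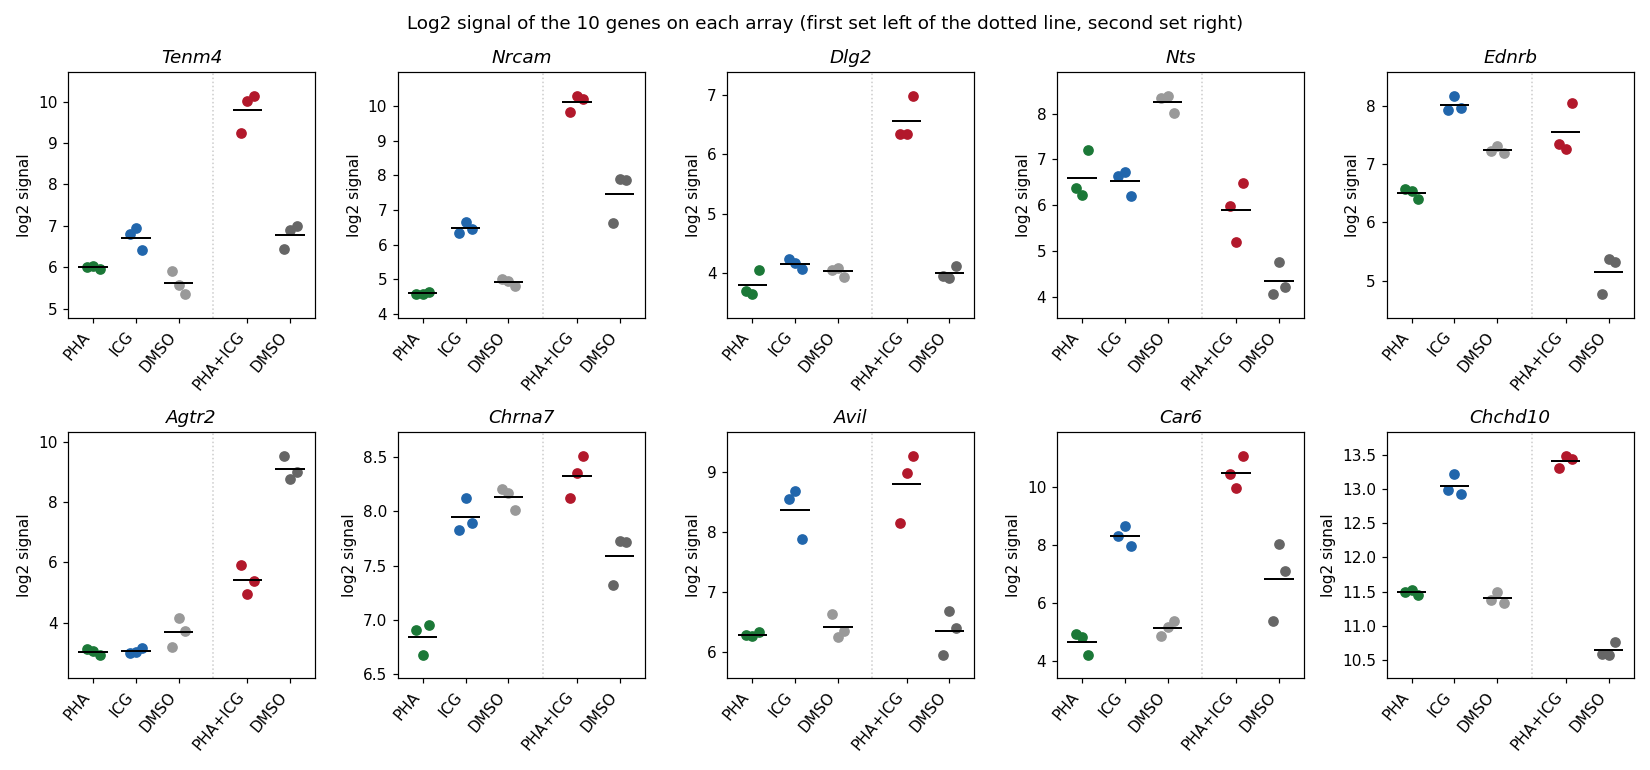
Log2 signal of each gene on each of the 15 arrays (points) with the group mean (line), for PHA, ICG and DMSO of the first set and PHA+ICG and DMSO of the second. Agtr2 lies between 8.77 and 9.53 in DMSO spheres of the second set and below 5 on every array of the first, and each panel has its own axis.

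Tenm4 had 9.23, 10.02 and 10.14 in PHA+ICG spheres, against 6.45, 6.89 and 7.00 in DMSO spheres of the second set. It was thus 3.02 higher with the combination, an 8.1-fold ratio. Among first-set spheres Tenm4 had 6.80, 6.94 and 6.41 in ICG spheres, against 5.92, 5.58 and 5.35 in DMSO spheres. All ICG arrays lay above all DMSO arrays, and Tenm4 rose by 1.10 ± 0.15 (SE, limma adjusted p = 0.000599). With PHA it had 6.00, 6.04 and 5.96, which differed from DMSO by 0.39 ± 0.15 and did not pass (adjusted p = 0.152), although it passed without DMSO replicate 1 (0.54, adjusted p = 0.0472). Its 3 probe sets gave differences of 3.02, 3.44 and 3.19 with PHA+ICG and of 1.10, 1.50 and 0.95 with ICG, so they went the same way.

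Nrcam had 9.82, 10.30 and 10.21 in PHA+ICG spheres, against 6.62, 7.90 and 7.85 in DMSO spheres of the second set, where replicate 1 stood apart. The difference was 2.65, and the range was 2.23 to 2.87 when 1 array at a time was left out. Among first-set spheres it had 6.32, 6.65 and 6.46 in ICG spheres, against 4.99, 4.96 and 4.79 in DMSO spheres. Nrcam rose with ICG by 1.56 ± 0.09 (adjusted p = 5e-06), a 2.95-fold ratio. With PHA it had 4.56, 4.58 and 4.64, just below all 3 DMSO arrays, and fell by 0.33 ± 0.09 (adjusted p = 0.0467). That call was lost when any array but DMSO replicate 3 was left out (adjusted p from 0.0452 to 0.139 over the 6 arrays). A second probe set followed with 1.76 for PHA+ICG and 0.58 for ICG, whereas the other 2 gave 0.71 and 0.38 for PHA+ICG and 0.07 and 0.19 for ICG. Averaged over its 4 probe sets Nrcam was 1.38 higher with PHA+ICG and 0.60 higher with ICG, and was at −0.06 with PHA.

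Dlg2 was not called with either single inhibitor in the first set, where it lay low on all 9 arrays, between 3.65 and 4.25. It had 4.25, 4.17 and 4.08 in ICG spheres, against 4.06, 4.10 and 3.94 in DMSO spheres, a difference of 0.13 ± 0.10 that did not pass (adjusted p = 0.403). With PHA it had 3.71, 3.65 and 4.06, which overlapped DMSO (−0.23 ± 0.10, adjusted p = 0.21; −0.35 and 0.0351 without PHA replicate 3). In the second set Dlg2 had 6.33, 6.34 and 6.98 in PHA+ICG spheres, against 3.96, 3.93 and 4.12 in DMSO spheres. DMSO means of Dlg2 on this probe set overlapped between the sets, at 4.00 ± 0.10 in the second and 4.04 ± 0.09 (SD) in the first, and the combination was 2.55 above. A second probe set gave 2.18 for the combination, with 6.39, 6.80 and 6.80 in PHA+ICG spheres against 3.53, 4.89 and 5.01 in DMSO spheres. The remaining probe set stayed between 3.31 and 3.95 on all 15 arrays, and the mean of the 3 was 1.64 higher.

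**Figure D2:**
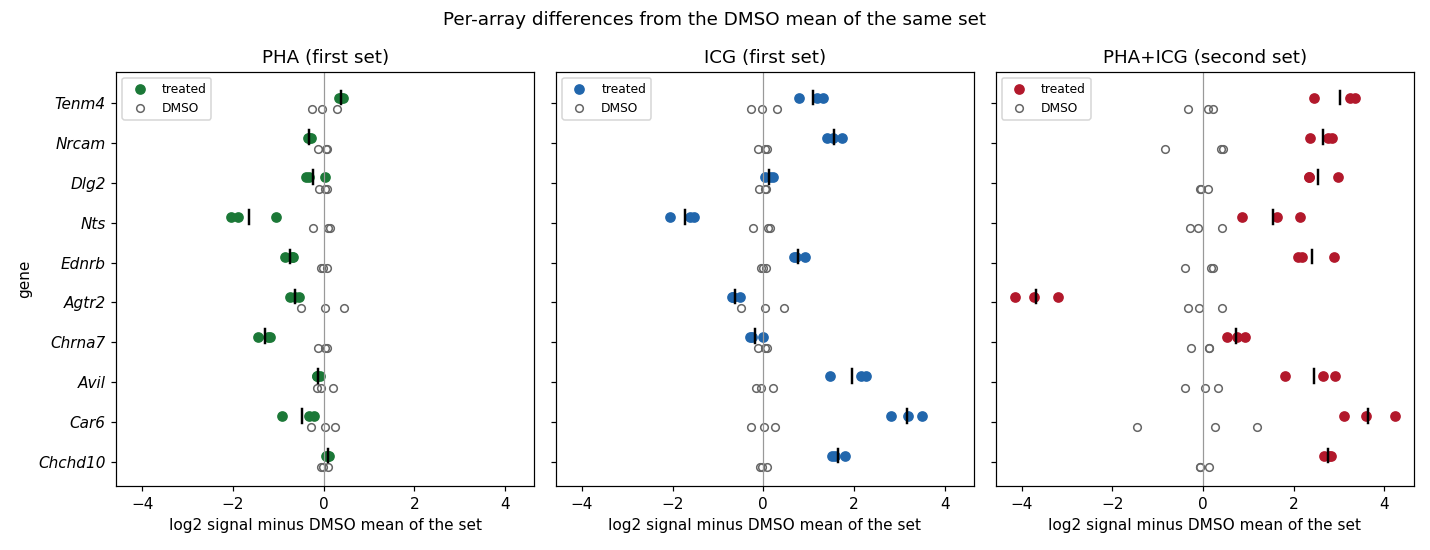
Log2 signal of each array minus the DMSO mean of its set, by gene, for PHA, ICG and PHA+ICG (filled points, with a line at the mean) and for the DMSO arrays themselves (open points). Dlg2 stays near 0 with PHA and ICG and is 2.55 higher with PHA+ICG; Nts and Chrna7 change sides between PHA and PHA+ICG.

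Nts, the peptide ligand of the group, had 5.97, 5.20 and 6.49 in PHA+ICG spheres, against 4.05, 4.75 and 4.22 in DMSO spheres of the second set, 1.55 higher. In the first set the order was turned round. Nts had 6.37, 6.21 and 7.21 in PHA spheres and 6.64, 6.73 and 6.19 in ICG spheres, against 8.35, 8.39 and 8.02 in DMSO spheres. Each single treatment thus lay below DMSO on all 3 arrays, by −1.66 with PHA and −1.74 with ICG. PHA and ICG were compared with the same DMSO arrays, so these 2 differences share them. The mean was 5.89 ± 0.65 with PHA+ICG, against 4.34 ± 0.36 with DMSO of the second set. In the first set it was 6.60 ± 0.54 with PHA and 6.52 ± 0.29 with ICG, against 8.25 ± 0.21 with DMSO (SD).

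Of the 3 receptor genes, Ednrb had 7.35, 7.26 and 8.05 in PHA+ICG spheres, against 4.77, 5.38 and 5.33 in DMSO spheres of the second set, a difference of 2.39. Within the first set it moved in opposite directions with the single inhibitors. It had 6.57, 6.54 and 6.40 in PHA spheres, against 7.23, 7.31 and 7.19 in DMSO spheres, and fell by 0.74 ± 0.08 (adjusted p = 0.000471). In ICG spheres it had 7.92, 8.17 and 7.96, all above DMSO, and rose by 0.77 ± 0.08 (adjusted p = 0.000116). PHA spheres were below ICG spheres by −1.52 ± 0.08 (adjusted p = 2.79e-06), a 2.86-fold ratio of ICG over PHA. These calls held whichever array was left out, but the other 2 probe sets of Ednrb barely moved in the first set (−0.12 and 0.13 with PHA, 0.05 and 0.20 with ICG). With the mean over its probe sets Ednrb was 1.45 higher with PHA+ICG and 0.34 higher with ICG, the PHA difference was −0.24 (adjusted p = 0.055), and with a spread pooled over all 15 arrays its adjusted p was 0.102.

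Agtr2 was the only member that was lower with PHA+ICG, at 5.90, 4.95 and 5.38, against 9.53, 8.77 and 9.01 in DMSO spheres of the second set. DMSO exceeded PHA+ICG 12.9-fold. In the first set its signal was among the dimmest on the arrays. It had 3.13, 3.05 and 2.94 in PHA spheres and 2.99, 3.02 and 3.17 in ICG spheres, against 3.19, 4.14 and 3.72 in DMSO spheres. On those 9 arrays between 2.09% and 23.9% of all probe sets were dimmer, against 82.5% to 87.7% in DMSO spheres of the second set; the table holds no detection calls. Agtr2 fell with ICG by 0.62 ± 0.19 (adjusted p = 0.0336), a call lost without any 1 of DMSO replicates 2 and 3 and ICG replicates 1, 2 and 3 (−0.39 to −0.87 over the alternatives). With PHA it was at −0.64 ± 0.19 and did not pass (adjusted p = 0.0587), though it passed without DMSO replicate 1 (−0.89, adjusted p = 0.00264).

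Chrna7 had 8.12, 8.35 and 8.51 in PHA+ICG spheres, against 7.32, 7.73 and 7.72 in DMSO spheres of the second set, 0.74 higher. In the first set it had 6.91, 6.68 and 6.95 in PHA spheres, against 8.21, 8.17 and 8.01 in DMSO spheres. All PHA arrays lay at least 1 below the DMSO arrays, with a difference of means of −1.28. With ICG it had 7.83, 8.12 and 7.89, which overlapped DMSO (−0.18). These values come from the brighter of 2 probe sets. The other lay between 4.38 and 5.04 on all 15 arrays and differed by −0.04 (PHA), 0.15 (ICG) and 0.07 (PHA+ICG), so the 2 probe sets of Chrna7 disagree.

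**Figure D3:**
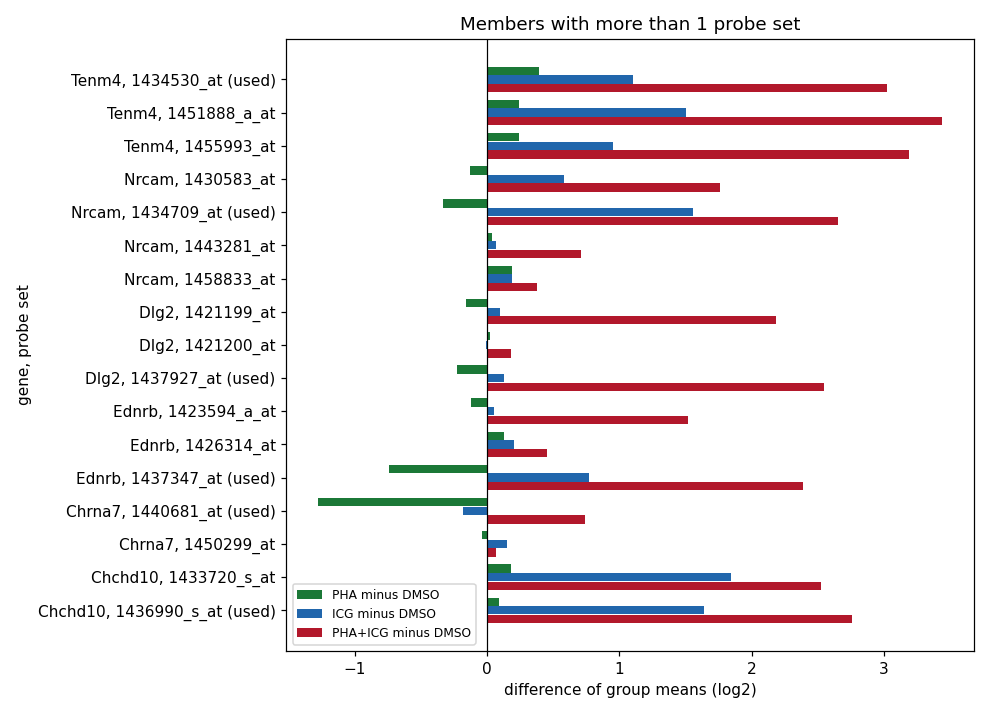
Differences of group means (log2) for each probe set of the 6 members with more than 1, for PHA, ICG and PHA+ICG, each against DMSO of its set; "used" marks the probe set with the highest mean. Tenm4 and Chchd10 agree over their probe sets, whereas the PHA difference of −1.28 for Chrna7 is seen on 1 of 2.

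The 3 members outside neural adhesion and signalling by name were higher in mean with ICG than with DMSO, as Nrcam, Tenm4 and Ednrb were. Of the 3 only Chchd10 was tested with ICG, where 11.9% of all genes were called higher. Avil and Car6 had also been named for that contrast, so nothing is read from what these 3 share. Avil had 8.15, 8.98 and 9.26 in PHA+ICG spheres, against 5.95, 6.68 and 6.39 in DMSO spheres of the second set. It had 8.55, 8.67 and 7.87 in ICG spheres and 6.27, 6.26 and 6.32 in PHA spheres, against 6.62, 6.25 and 6.35 in DMSO spheres of the first set. The differences were 2.45 with PHA+ICG and 1.96 with ICG, while that of PHA did not pass (−0.12 ± 0.18, adjusted p = 0.721). Avil has 1 probe set, and its DMSO means of 6.34 ± 0.37 in the second and 6.40 ± 0.19 in the first set (SD) were within their spread.

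Car6 had 10.43, 9.94 and 11.06 in PHA+ICG spheres, against 5.38, 8.02 and 7.11 in DMSO spheres of the second set. The DMSO values of Car6 spread by an SD of 1.34, more than those of any other member, but stayed below the treated ones. Arrays of the first set gave 8.32, 8.65 and 7.96 in ICG spheres, against 4.87, 5.16 and 5.39 in DMSO spheres, so that Car6 was 3.17 higher, at rank 2 from the highest of all genes. In PHA spheres it had 4.93, 4.81 and 4.22 (−0.49 ± 0.22 against DMSO, adjusted p = 0.193), which did not pass.

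Chchd10 had 13.31, 13.48 and 13.43 in PHA+ICG spheres, against 10.59, 10.58 and 10.77 in DMSO spheres of the second set, a difference of 2.76 with little spread. It had 12.99, 13.21 and 12.92 in ICG spheres, against 11.38, 11.49 and 11.34 in DMSO spheres of the first set. Chchd10 rose with ICG by 1.64 ± 0.08 (adjusted p = 1.99e-06) and, at 11.49, 11.53 and 11.45 in PHA spheres, did not pass with PHA (0.09 ± 0.08, adjusted p = 0.544). A second probe set gave 2.52 with PHA+ICG and 1.84 with ICG. Both are of a type (s_at) that can match transcripts of more than 1 gene. The windows above with 2 matches and 1 match of TGATGCAA thus belong to Chchd10 and Avil. Those of Nrcam, Tenm4 and Car6, which were higher with ICG too, held none of the 4 motifs, and that of Ednrb held the RE1 letters only. Nts, whose window held the ATF4 and C/EBP letters, was at −1.74 with ICG.

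Over the members, limma called 4 higher (Nrcam, Chchd10, Tenm4 and Ednrb) and 1 lower (Agtr2) of 6 tested with ICG, where 26.9% of all genes were called in either direction and 11.9% higher. With PHA it called 0 higher and 2 lower of 8 tested, against 3.14% and 7.07% of all genes. At an unadjusted p under 0.05 with PHA, 5 of the 8 passed, 1 higher (Tenm4) and 4 lower (Nrcam, Ednrb, Agtr2 and Car6), as did 25.5% of all genes in either direction. Over the tested members alone the median difference was 0.94 with ICG and −0.28 with PHA, against 0.03 and 0.02 over all genes. The members were chosen on PHA+ICG, a treatment that includes both inhibitors, so nothing is read from these medians. PHA and ICG were also compared directly. Of the 6 genes tested 5 were lower in PHA than in ICG spheres: Nrcam by −1.89 ± 0.09, Chchd10 by −1.55 ± 0.08, Ednrb by −1.52 ± 0.08, Tenm4 by −0.72 ± 0.15 (adjusted p = 0.00634) and Dlg2 by −0.36 ± 0.10 (adjusted p = 0.0286). For all genes 13.4% were called lower in PHA. With the mean over probe sets the difference was −0.66 for Nrcam and −0.59 for Ednrb. The call of Dlg2 was lost without PHA replicate 1 or 2 or ICG replicate 1 or 2 (adjusted p up to 0.107), and that of Tenm4 with all 15 arrays in 1 model (adjusted p = 0.0722). Agtr2 did not pass (−0.02 ± 0.19), and both groups lay at the dim end.

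Several of these genes had other levels in DMSO spheres of the second than of the first set, while Dlg2 (−0.03 on the probe set used) and Avil (−0.06) overlapped. The members were chosen on a contrast that holds the second set's DMSO arrays, so nothing is read from how many differ. Agtr2 averaged 9.10 ± 0.39 in the second and 3.68 ± 0.48 in the first set, Nrcam 7.46 ± 0.72 and 4.92 ± 0.11, and Tenm4 6.78 ± 0.29 and 5.61 ± 0.29 (SD). These 3 genes, and Car6 by 1.70, were at least 1 higher in the second set. Car6 overlapped between the sets and was 1.11 higher without DMSO replicate 2 of the second set and 2.42 higher without its replicate 1. Nts was lower there by −3.92 and Ednrb by −2.08, with 5.16 ± 0.34 in the second and 7.24 ± 0.07 in the first set. With the mean over probe sets the difference was 1.14 for Nrcam, −0.83 for Ednrb and 0.39 for Dlg2. Another probe set of Dlg2 was 0.99 higher in the second set. Over all genes 4.44% were at least 1 higher and 4.39% at least 1 lower in the second set. Set and culture cannot be told apart, and whether both sets were normalized together is not stated, so these are differences of deposited values with no test. A difference with PHA+ICG was therefore read only against DMSO of its own set. The replicates of the second set also spread more, with a median SD per gene of 0.236 against 0.107 in the first.

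Of 114 measured relatives of the members, in 10 lists by family or pathway, 13 rose and 24 fell with ICG, where 11.9% of all genes were called higher and 26.9% in either direction. With PHA 2 rose and 10 fell, against 3.14% and 7.07% of all genes. With PHA+ICG 0 were at least 1 higher, against 0.561% of all genes. Ank3 (−1.26) and Chl1 (−1.41) were at least 1 lower, as were 2.78% of all genes. Chl1 spread widely, at 6.42 ± 1.96 in PHA+ICG and 7.83 ± 1.29 in DMSO spheres of the second set (SD). Ank3 was at 6.78 ± 0.11 and 8.04 ± 0.32 there (SD). Over the 114 relatives the median difference was 0.00 with ICG and 0.02 with PHA. Among teneurins and latrophilins, 2 rose and 2 fell of 6 with ICG: the teneurin Tenm3 by −0.97 ± 0.15 and the latrophilin Adgrl1 by −0.71 ± 0.14, while the latrophilins Adgrl2 and Adgrl3 rose by 0.40 ± 0.08 and 0.30 ± 0.10. With PHA limma called 0 of these 6. Of 22 other neural adhesion genes 3 rose and 3 fell with ICG, and 0 were called with PHA. Ankyrins differed: Ank3 changed by −1.20 ± 0.13 and Ank2 by 0.54 ± 0.11, while Ncam1, a neural adhesion molecule, changed by −0.32 ± 0.07. Of the other L1 family genes Chl1 fell by 1.14 ± 0.23, and L1cam (0.12 ± 0.08, adjusted p = 0.338) and Nfasc (−0.30 ± 0.12, adjusted p = 0.0965) did not pass. Of 20 scaffold and partner genes of Dlg2, 3 rose and 2 fell with ICG, with its paralog Dlg4 at −0.69 ± 0.11 and Magi1, Magi3 and Dlgap2 at 0.37, 0.35 and 0.33, and 1 rose and 1 fell with PHA, Magi1 by 0.32 ± 0.08 and Lin7a by −0.43 ± 0.10.

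For the ligand and receptor systems, the neurotensin receptors Ntsr1 and Ntsr2 and the sorting receptor Sort1 were not called with PHA or ICG, and lay within 0.13 of DMSO with all 3 treatments. Of 5 other endothelin genes, the ligand gene Edn1 fell with PHA by 0.63 ± 0.15 and with ICG by 0.69 ± 0.15. Edn2 fell with ICG by 0.37 ± 0.07, Edn3 rose with ICG by 0.60 ± 0.17, and the converting enzyme gene Ece2 fell with PHA by 0.27 ± 0.06. In the angiotensin system 1 of 8 rose and 2 fell with ICG: Ace, which makes angiotensin's active form, by −1.19 ± 0.15 and the aminopeptidase gene Enpep by −0.71 ± 0.14, with Atp6ap2 at 0.17 ± 0.05. With PHA 1 fell, the gene Mtus1, whose product binds the Agtr2 protein, by 0.48 ± 0.08. Agtr1a and Agtr1b, the other angiotensin receptor genes, were not called in the first set and were at −0.28 and −0.09 with PHA+ICG. Among 16 nicotinic receptor genes and partners the muscle subunit gene Chrna1 fell with both, by 1.14 ± 0.13 with PHA and 1.07 ± 0.13 with ICG. Lynx1, a toxin-like modulator of nicotinic receptors, rose by 0.62 ± 0.06 with PHA and fell by 0.31 ± 0.06 with ICG, while Chrna6 rose with ICG by 0.29 ± 0.09.

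**Figure D4:**
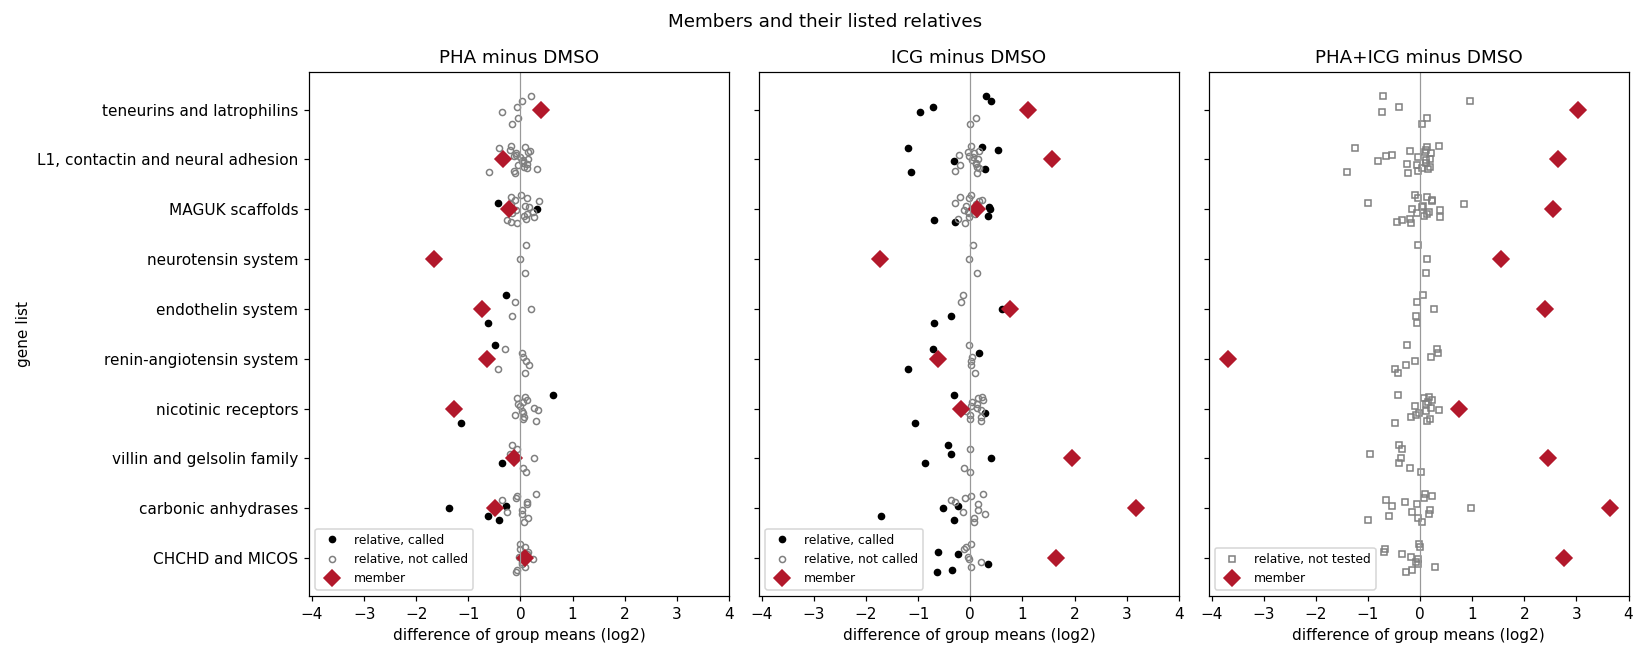
Differences of group means (log2) for members (diamonds) and for the listed relatives (circles, filled where called; squares where not tested), by list, for PHA, ICG and PHA+ICG, each against DMSO of its set. With PHA+ICG, the contrast the members were chosen on, they lie between −3.69 and 3.64. Of 114 relatives 0 are at least 1 higher there, against 0.561% of all genes. Nothing is read from members set beside relatives in that contrast.

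In the family of Avil, 1 rose and 3 fell of 7 with ICG: the actin-severing gelsolin gene Gsn by −0.87 ± 0.08, Svil by −0.42 ± 0.07 and Capg by −0.37 ± 0.07, with Scin at 0.39 ± 0.12. Gsn also fell with PHA, by 0.36 ± 0.08. Of 15 other carbonic anhydrase genes 0 rose and 4 fell with ICG, and 0 rose and 4 fell with PHA. The membrane-anchored Car4 changed by −1.71 ± 0.09 with ICG and −0.62 ± 0.09 with PHA. Car8, which lacks enzyme activity, changed by −0.52 ± 0.16 with ICG and −1.38 ± 0.16 with PHA, and was at 0.97 with PHA+ICG. Of 12 genes for CHCHD proteins and the mitochondrial cristae complex 1 rose and 4 fell with ICG, Chchd1 by −0.64 ± 0.07 and Micos13 by −0.63 ± 0.07 among them, and 0 were called with PHA.

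Likeness between genes was measured as the root mean square difference, over the 15 arrays, of log2 signals taken from the DMSO mean of the set. It is a description that uses the same arrays and the contrast of choice. Nrcam lay closest to Chchd10 (0.33), Avil (0.339) and the stress-induced kinase-like gene Trib3 (0.351), where Nrcam's own root mean square was 1.41. Avil was closest to Nrcam, Trib3 (0.342) and Chchd10 (0.353), and Tenm4 to Chchd10 (0.366), Prr32 (0.411) and Nrcam (0.471). Car6 lay near Trib3 (0.803), the cystathionine lyase gene Cth (0.859) and the amino acid transporter gene Slc7a3 (0.86), less closely in relation to its own 2.24. Dlg2 and Ednrb each had the other at rank 3 (0.415); Dlg2 was closest to Mei4 (0.291), whose difference was 2.70 with PHA+ICG and 0.19 with ICG, and then to the protease gene Prss12 (0.413), and Ednrb to Prss12 (0.326) and Unc45b (0.349). Agtr2 was nearest to the amine oxidase gene Aoc3 (0.298), then to Nrk (0.646) and Tmem35a (0.707). Chrna7 was nearest to Lypd1 (0.225), Car8 (0.283) and Arnt2 (0.295). Nts had no close neighbour: Car8, Bmpr1b and F3 lay at 0.748 to 0.833, against its own 1.33.

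Markers of the cells the spheres could hold were measured beside these genes. Of 10 keratin and other mammary epithelial genes 0 rose and 4 fell with each single inhibitor. With PHA+ICG 2 were at least 1 lower, Krt8 (−1.23) and Krt14 (−1.29), and the median was −0.70. The list mean was 7.40 in PHA+ICG and 8.13 in DMSO spheres of the second set, and 7.71, 7.86 and 8.03 in PHA, ICG and DMSO spheres of the first. Arrays of the second set ranged from 6.95 to 8.26 with PHA+ICG and from 8.03 to 8.31 with DMSO, and so overlapped. In PHA+ICG spheres Krt8 had an SD of 1.10 and Krt14 one of 0.53. The 8 neuron markers had list means of 5.08 in PHA+ICG and 5.09 in DMSO spheres of the second set, and of 4.71, 4.66 and 4.63 in PHA, ICG and DMSO spheres of the first; by limma 0 rose, and 1 (Tubb3, −0.30 ± 0.07) fell with ICG. The 6 Schwann and glial markers were at 5.56 in PHA+ICG and 5.66 in DMSO spheres, with 0 called in the first set (Sox10 at −0.18 ± 0.07 with ICG). Tuft cell markers, of which Avil is known as one in gut, did not rise: 0 of 6 rose and 2 fell with ICG, Alox5ap by −1.39 ± 0.10 and Dclk1 by −0.98 ± 0.06. Of 6 melanocyte markers 0 rose and 1, Mitf, fell with each single inhibitor (−0.37 ± 0.09 with ICG). The other 5 were not called, and the list's median was 0.03 with ICG and −0.06 with PHA+ICG, where Mitf was at −1.08. Fibroblast markers fell with ICG in 9 and with PHA in 6 of 10 cases, and ranged over arrays from 11.28 to 11.58 in PHA+ICG and from 11.95 to 12.21 in DMSO spheres of the second set. In the first set they ranged from 9.97 to 10.12 in PHA, 9.16 to 9.81 in ICG and 10.51 to 11.12 in DMSO spheres. The list mean was lower with each treatment and higher in DMSO spheres of the second set, as Agtr2 was. The fibroblast ranges did not overlap in any of these comparisons. The mammary epithelial list and the smooth muscle and pericyte list had the same order of list means, but their arrays overlapped in part. The mammary epithelial list ranged from 7.99 to 8.06 in DMSO spheres of the first set, against 8.03 to 8.31 in those of the second. The smooth muscle and pericyte list was at 5.68 (5.57 to 5.81) in DMSO spheres of the first and 6.22 (5.83 to 6.43) of the second set. It ranged from 5.54 to 5.64 in ICG and from 5.61 to 5.65 in PHA spheres. Between the DMSO spheres of the sets, 6 of the 10 fibroblast markers were at least 1 higher in the second and 1, Thy1 (−1.61), at least 1 lower. Leukocyte markers ranged from 6.18 to 7.48 in PHA+ICG and from 6.90 to 8.46 in DMSO spheres of the second set. First-set arrays gave 8.57 to 8.68 in PHA, 8.06 to 8.27 in ICG and 8.80 to 8.99 in DMSO spheres. DMSO spheres of the second set were thus lower on this list than those of the first. By limma 0 of 8 rose and 4 fell with ICG. Of 7 smooth muscle and pericyte markers 1 fell with each single inhibitor, and of 6 endothelial markers 1 fell with PHA. In such bulk samples fewer cells of a type and less RNA per cell cannot be told apart, and the part of these cells in the differences of the 10 genes was not tested.

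**Figure D5:**
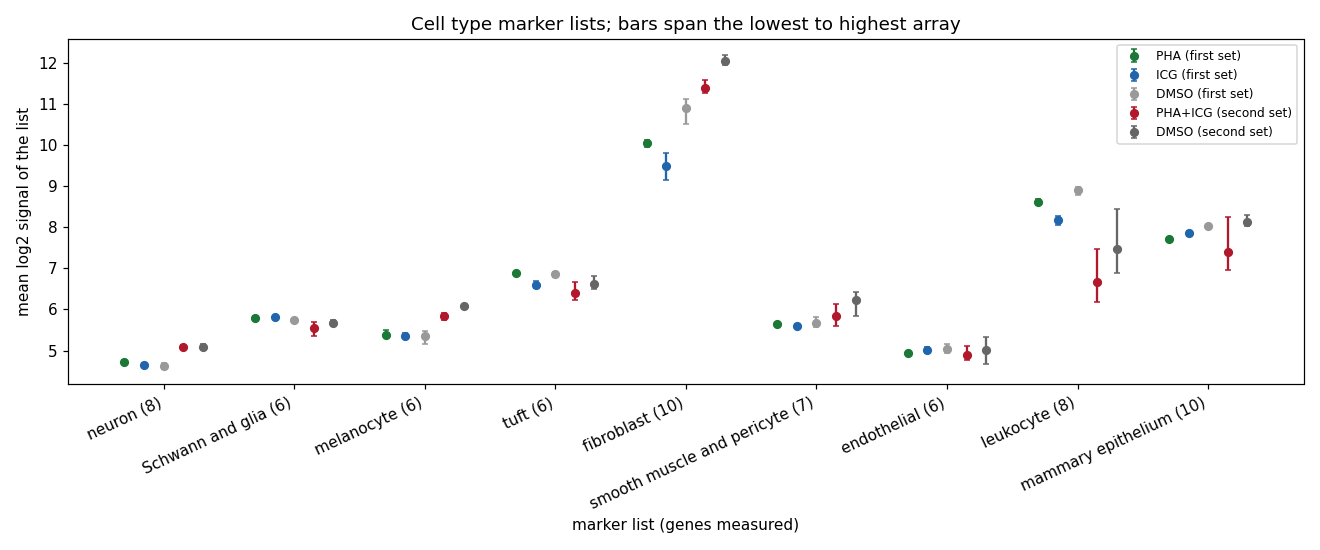
Mean log2 signal of each cell type marker list by group (point), with bars from the lowest to the highest array; the number of genes measured is in brackets. Neuron markers stay at 5.08 with PHA+ICG and 5.09 with DMSO of the second set, and fibroblast markers are lower with PHA, ICG and PHA+ICG than with DMSO of the same set.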

How the data were processed

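The deposited values are log2 signals of 45101 probe sets on 15 Affymetrix arrays, made from 250 ng of RNA each; per the submitters' processing notes the tools were MAS5 and RMA, without versions or roles. The values have the range of RMA output. Of the probe sets 34945 had 1 gene symbol, 932 several and 9160 none in the platform annotation, 64 were controls, and for each gene the probe set with the highest mean was used. In R 4.3.3, limma 3.58.1 was fitted to the 9 arrays of the first set with 3 group means (6 residual and 3.98 prior degrees of freedom) and, for the shares of all genes only, to the 6 of the second; genes were called at an adjusted p under 0.05. The sets were fitted apart because their spread differs. The fit was tested on simulated data. The members, gene lists and motifs were chosen with earlier results of these data known. Text names all members, the 3 genes nearest to each, called relatives (up to 4 of a list by size) and relatives compared with a member. Beyond that rule, the relatives Sort1, Ntsr1, Ntsr2, Agtr1a, Agtr1b and the markers were named after their values were seen. Same-numbered arrays of the first set deviated alike with correlations of −0.26 to 0.12 and were not taken as pairs; those of the second set had 0.61, 0.36 and 0.28, which bears on no test of a member. Alternatives were a fit of all 15 arrays, quantile normalization, median centring, the mean over probe sets, a mean signal of at least 5, a replicate block and leaving out each array. Tables and figures were made with matplotlib 3.10.9, pandas 2.3.3 and numpy 2.4.6 under Python 3.11.15.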

Additional observations from a re-analysis of the deposited data

How the results depend on the processing

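Over 12 alternatives (11 for genes whose mean lies under 5), the rises of Tenm4, Nrcam, Ednrb and Chchd10 with ICG and the lower levels of Nrcam, Ednrb and Chchd10 in PHA than in ICG spheres kept their direction and their call. With all 15 arrays in 1 model the members called lower with PHA were 0, against 2 on the first set alone, those called lower with ICG 0 against 1, and those lower in PHA than in ICG 3 against 5; genes called of all were then 182 with PHA (1858 on the first set), 1255 with ICG (4896) and 1463 between PHA and ICG (4939). With the mean over probe sets 0 members were lower with PHA, and 1 member, against 2, was at least 1 lower in DMSO spheres of the second than of the first set. A mean of at least 5 leaves out Agtr2 and Dlg2, so 0 members were called lower with ICG. With replicate number as a block, 1 member (Ednrb) was called lower with PHA, out of 1202 genes, and the lower level of Dlg2 in PHA than in ICG spheres was lost (adjusted p = 0.0612). Leaving out 1 array gave 0 to 1 members higher and 1 to 2 lower with PHA, out of 1005 to 1691 genes, and 0 to 1 lower with ICG. Of all genes 368 were called with PHA+ICG on the second set, 2413 with all 15 arrays and 1442 with the block; these 2 alternatives were chosen after seeing the data. Differences near 0 turned round: between PHA and ICG that of Nts was −0.23 without PHA replicate 3 and −0.08 without ICG replicate 3, and that of Agtr2 0.03 without either, and leaving out 1 array gave −0.23 to 0.27 for Nts and −0.07 to 0.03 for Agtr2. Between the DMSO spheres of the sets that of Dlg2 was 0.39 with the mean over probe sets, 0.01 without replicate 2 of the second set and 0.00 without replicate 2 of the first (−0.09 to 0.01 leaving out 1 array), and that of Avil was 0.13 and 0.04 without replicate 1 of the second or first set. The cause of these changes was not tested. The 3 arrays a group and the dim signals of Agtr2 and Dlg2 in the first set limit what could be seen there.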
